A study of Mus musculus with 9 samples.

Results

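The serine/arginine-rich splicing factor genes (Srsf) and the heterogeneous nuclear ribonucleoprotein genes (Hnrnp) were followed through an antibody enrichment of RNA carrying N4-acetylcytidine (ac4C) from mouse testis. The members were the protein-coding genes of the GENCODE vM21 annotation whose symbol begins with Srsf and a digit or with Hnrnp. This gave 31 genes, 11 Srsf and 20 Hnrnp, of the 55401 genes in the deposited table, 21208 of which are protein coding. The table holds 9 libraries of polyadenylated RNA from WT mouse testis. The input group (n = 3) is RNA that met no antibody, the IgG group (n = 3) is what a control IgG on beads retained, and the acRIP group (n = 3) is what an antibody to ac4C retained. All 9 come from the same genotype and tissue, per the methods from ICR mice, and carry no other treatment; the age of the animals is not given in the sources used here. Before the pull-down, the RNA had received an ac4C-bearing β-globin transcript made in vitro. The labels number the libraries of each group 1 to 3 without saying whether they stem from separate animals or separate precipitations, so the p-values below measure the spread between these libraries, which may be technical.

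SR proteins carry RNA recognition motifs and a tail rich in arginine and serine, bind exonic enhancers and help the spliceosome to select splice sites. The hnRNP proteins coat nascent transcripts, often oppose exon inclusion, and also act in export, stability and translation of mRNA. Testis is known for abundant alternative splicing, and several members of both families are needed for the progress of germ cells through spermatogenesis. ac4C is laid down by NAT10, and the study asked which transcripts of the testis are recovered by the antibody beyond both input and IgG.

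In cultured human cells the study described a sequence enriched around ac4C, TCCCAGCT with U for T. For the testis the study reported a similar motif, CHCAGSHC (H is C, U or A and S is C or G), which was not searched for here. The longest coding transcript of each member was searched for TCCCAGCT on the sense strand. Matches were found in 2 of the 31 members, 6.45%, against 12.3% of 21901 coding transcripts; the median transcript length was 2847 bases in the members and 2680 in all. Hnrnpr, whose protein is a relative of Syncrip that binds mRNA, held 2 matches and Srsf1, the founding SR protein, held 1, all in the 3′ untranslated region. The searched Hnrnpr transcript is 21452 bases long, 19419 of them in that region, so it offers more places for a match. The windows are shown because they locate every match among the members, with the matched letters in capitals, in build mm10 on the plus strand.
Hnrnpr, chr4:136344997-136345026: aacaaaaatccTCCCAGCTtatactcaggg
Hnrnpr, chr4:136357859-136357888: aatgcagcaagTCCCAGCTgtggtgagtcc
Srsf1, chr11:88053126-88053155: tcctctcttccTCCCAGCTttatattttta
TGTGCG, which with U for T is a sequence that TDP43 prefers, was found in 6 members, 19.4%, against 28.7% of all coding transcripts; in the windows above it does not occur. Such matches are descriptions of the letters and show neither a modified base nor a bound protein.

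The libraries held 22023925 to 31340090 counts in input, 14647542 to 18786779 in IgG and 16025779 to 18639134 in acRIP, and the 31 members took 0.199% to 0.204%, 0.221% to 0.224% and 0.205% to 0.211% of them. Genes with at least 1 count numbered 28552 to 29642 in input, 26204 to 26874 in IgG and 22206 to 22402 in acRIP. Of 15593 genes with at least 40 counts in every input library, 279 had no count in all 3 acRIP libraries and 2 had none in all 3 IgG libraries. Replicates of each group differed by more than counting noise, with a mean chi-square per gene of 2.06 to 3.45 between pairs of libraries once each count was divided by 2. Spermatid markers summed to 27500 to 35060 FPKM (counts scaled by the length of the exons and by the library total) over the 9 libraries and meiotic spermatocyte markers to 549 to 713 FPKM, as the tissue label implies. The 8 erythrocyte markers, which include β-globin genes related to the added RNA, summed to 184 to 189 FPKM in input, 248 to 267 in IgG and 892 to 1166 in acRIP. The largest part of that sum in each group was the β-globin gene Hbb-bs, at means of 156.6, 207.5 and 990.3 FPKM (log2 fold change of 2.31 over IgG), whereas Alas2, the heme enzyme of erythroid cells, was lower than in IgG (-2.92) and Hba-a1 did not pass the test (-0.0030). The median over the 6 tested markers was -0.0015, and their part in the results below was not tested. Because precipitated RNA was too scarce to quantify, each value is a share of its library and not an amount recovered. In a mixed tissue, fewer cells of a type and less RNA per cell cannot be told apart.

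Srsf1 and Hnrnpu were almost absent from the table. Srsf1 had no count in any input library, 2 counts in IgG replicate 3 and none in acRIP, and Hnrnpu, which encodes the scaffold attachment factor that binds chromatin and RNA, had 2 counts in IgG replicate 3, 1 count in acRIP replicate 3 and none elsewhere. Neither passed the filter on low counts, so 29 of the 31 members were tested, 10 Srsf and 19 Hnrnp. A count of 0 in all 3 input libraries lies under a floor of 3 counts per library. Adjacent genes were near 0 as well. Vezf1, Cuedc1, Mrps23 and Ccdc182 beside Srsf1 on chromosome 11 and Cox20 beside Hnrnpu on chromosome 1 had 0 counts in all 9 libraries, and Desi2 had 2 counts in all. Dynll2 and Msi2, the genes on either side of the empty stretch of chromosome 11, had 79928 and 9201 counts, and Efcab2, the next gene after Hnrnpu, had 29486. All genes of the empty stretches are annotated by RefSeq on GRCm38.p6 both on their chromosome and on a patch scaffold. Of 275 coding genes with that double placement, 241 (87.6%) had at most 20 counts summed over the 9 libraries, against 3859 of 18978 genes placed on a chromosome alone (20.3%) and 191 of 786 with a copy on another kind of scaffold (24.3%). The deposited counts hold uniquely mapped reads, and whether the authors' reference included patches is not given in the sources used here; its part was not tested. The near-zero values of Srsf1 and Hnrnpu are therefore not read as levels of these transcripts in the testis.

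**Figure D1:**
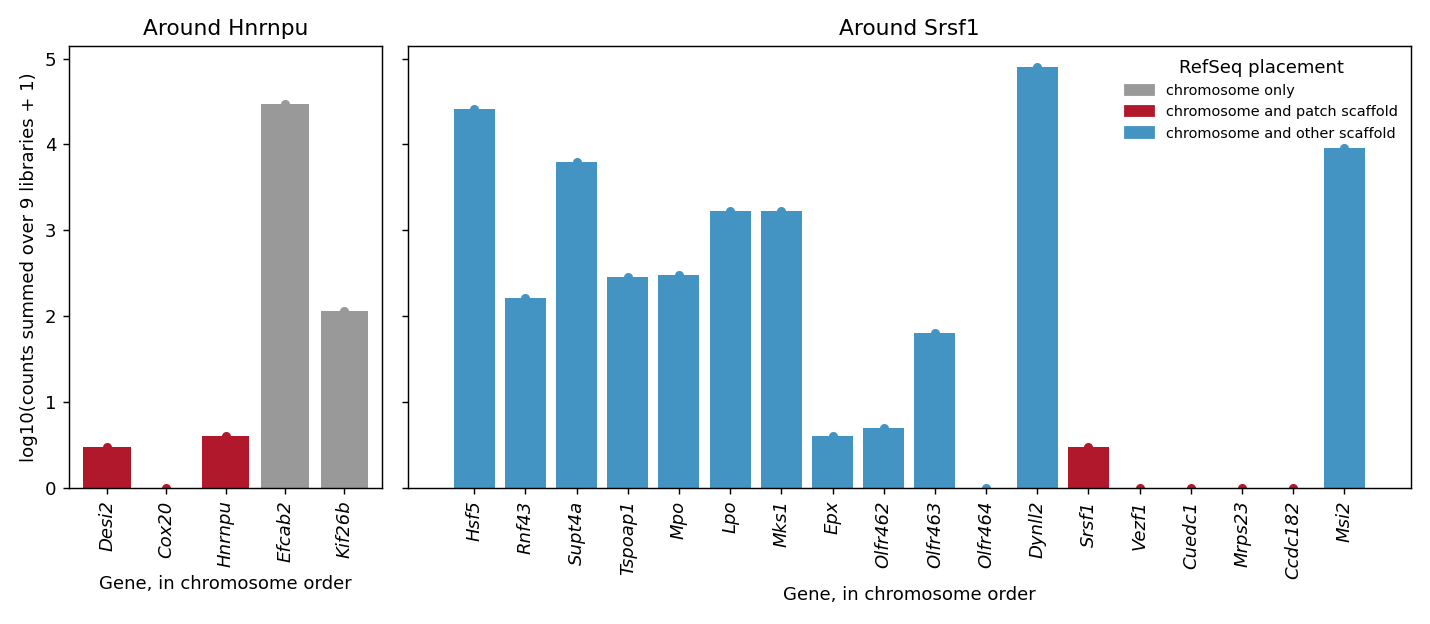
Bars give log10 of the counts summed over the 9 libraries plus 1 (y axis) for the genes around Hnrnpu and Srsf1 in chromosome order (x axis), coloured by whether RefSeq places the gene on the chromosome alone, also on a patch scaffold, or also on another scaffold. Every gene placed on a patch in these 2 neighbourhoods has between 0 and 3 counts, while Efcab2, Dynll2 and Msi2 beside them have 29486, 79928 and 9201.

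Sequence shared with other loci also limits some members. In Hnrnpa1 and Hnrnpa3, which encode close relatives that repress exons, 81.1% and 80.2% of the 100-base windows of the longest coding transcript have an exact copy elsewhere in the genome. For Hnrnpf the share was 65.6%, for Hnrnpk 37.7%, for Srsf5 27.7%, for Srsf3 26.7%, for Srsf10 20.1% and for Hnrnph2 13.8%, and it was at most 8.19% in the rest. A read that lies wholly in such copies may not map uniquely; mappability at the length of the reads was not tested, and the levels of Hnrnpa1 and Hnrnpa3 in particular are uncertain. Exons shared with other genes are a further limit, since the strand setting of the counting is not given. Antisense Gm12992 covers 43.0% of the exon bases of Srsf4, Phykpl 29.1% of Hnrnpab, 4933440N22Rik and Gm43863 26.5% of Hnrnpf and Mettl23 and Mfsd11 25.3% of Srsf2, while March2, on the same strand, shares 14.7% of Hnrnpm.

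In input the measured members spanned from 52.2 to 0.263 FPKM. Hnrnpf, whose protein binds runs of guanosine, stood at 51.2, 51.7 and 53.8 FPKM in the 3 libraries. Srsf7, an SR protein that also links splicing to export, followed at 44.9, 47.2 and 46.6 FPKM, below all values of Hnrnpf. Next came Hnrnpk, a binder of cytidine-rich RNA, at 38.8, 41.8 and 40.5 FPKM and Hnrnpa2b1, which binds exonic silencers, at 39.6, 40.5 and 40.2. These 2 neighbours did not differ beyond their spread. At the low end Srsf12, a small SR-like repressor related to Srsf10, had 0.568, 0.750 and 0.887 FPKM, Hnrnpul2, a relative of Hnrnpu, 0.655, 0.549 and 0.704, and Hnrnpa3 0.177, 0.379 and 0.234. Srsf12 and Hnrnpul2 overlapped, and Hnrnpa3 lay below both. Within paralog groups the levels differed widely. Srsf3 at 17.9 ± 0.697 FPKM (mean ± SD, n = 3 in this and the following values) was below Srsf7 at 46.2 ± 1.22, Srsf4 at 2.31 ± 0.178 was below Srsf6 at 16.6 ± 0.135 and Srsf5 at 25.0 ± 1.04, and Hnrnpd at 1.27 ± 0.0950 was below its relatives Hnrnpab at 2.46 ± 0.403 and Hnrnpdl at 15.5 ± 0.153. FPKM used the deposited gene length, the sum of all annotated exons, which exceeds the longest coding transcript by up to 3.81-fold, in Hnrnpa2b1, and lowers the value of such genes.

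**Figure D2:**
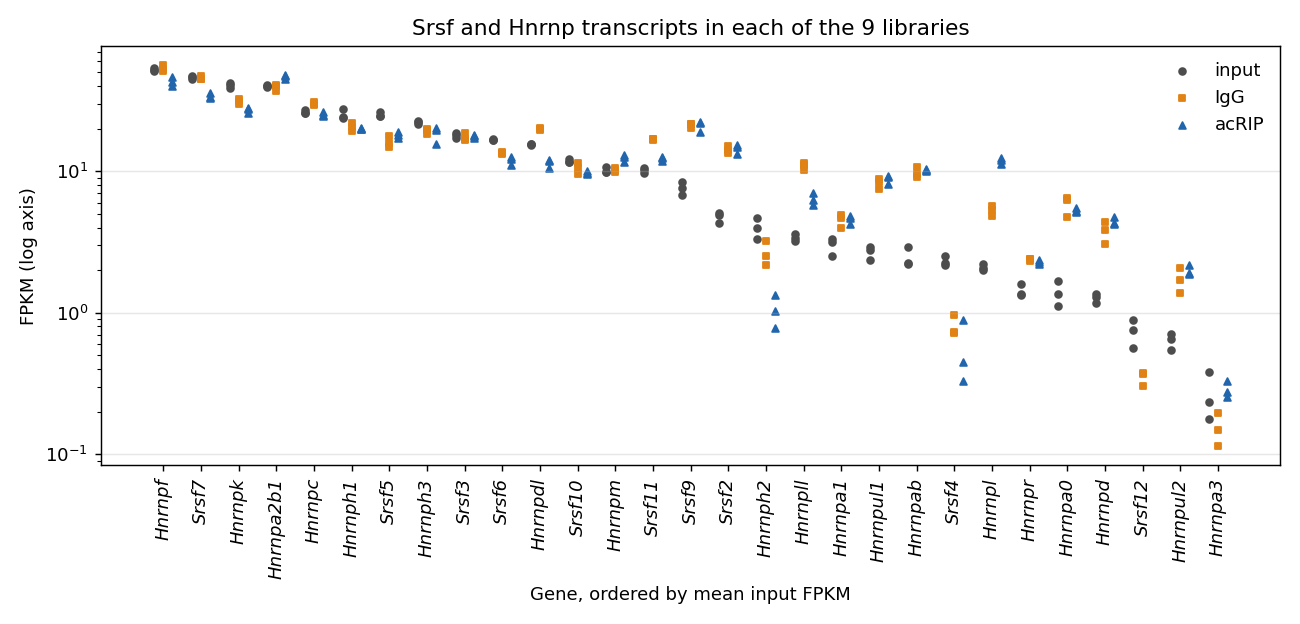
FPKM on a log axis (y) for the 29 tested Srsf and Hnrnp genes ordered by mean input level (x), with 1 point per library for input, IgG and acRIP; zeros of Srsf12 in acRIP cannot be drawn on this axis. The abundant genes on the left stay close in all 3 groups, and the groups separate on the right.

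Against IgG, 1 member, Hnrnpl, was higher in acRIP and 2 members, Hnrnph2 and Srsf12, were lower, out of 29 tested, by edgeR's quasi-likelihood test. Here and below, a gene was called where its p after Benjamini-Hochberg adjustment was under 0.05 and it differed by over 2-fold. Over all 22510 tested genes 11.5% were called higher and 20.9% lower in this comparison, and over the tested protein-coding genes 9.04% and 19.6%. The members' shares of 3.45% and 6.9% were lower than these, but they rest on 1 and 2 of 29 genes. Neither background is matched for level. Of 4145 tested coding genes at or above 10 FPKM in input, 13 were called higher and 97 lower, and of 10851 below it 1343 and 2838. Among the members 14 stood at or above 10 FPKM, and all called ones were among the 15 below it. The median log2 fold change was 0.001 in the members and -0.09 over all tested genes. By the adjusted p alone, 5 members were higher and 9 lower, where 26.4% and 37.6% of all tested genes were. The 3 acRIP libraries lay above all 3 IgG libraries in 6 members and below them in 10, as they did in 27.8% and 37.8% of all tested genes.

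Against input, 8 members were higher in acRIP and 3 were lower, 27.6% and 10.3% of the 29. The backgrounds were 17.7% and 22.9% of all tested genes and 15.9% and 21.6% of the tested protein-coding genes. The higher members were Hnrnpl, Hnrnpab, Hnrnpa0, Hnrnpd, Hnrnpul1, Hnrnpul2, Srsf2 and Srsf9, and the lower ones Srsf4, Hnrnph2 and Srsf12. The median log2 fold change of the 29 was 0.22, beside -0.10 over all tested genes. Control IgG over input gave 9 members higher (31.0%) and 1 lower (3.45%), against backgrounds of 13.5% and 7.22% (13.0% and 6.27% of the coding genes). The 9 were the 8 genes just listed and Hnrnpll, and the lower one was Srsf4. The 3 comparisons share libraries, so their values are set side by side below and are not separate evidence. Hnrnpl alone was called higher in acRIP than in both IgG and input, where 7.88% of all tested genes were, and Hnrnph2 and Srsf12 were called lower than in both, where 17.0% were.

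**Figure D3:**
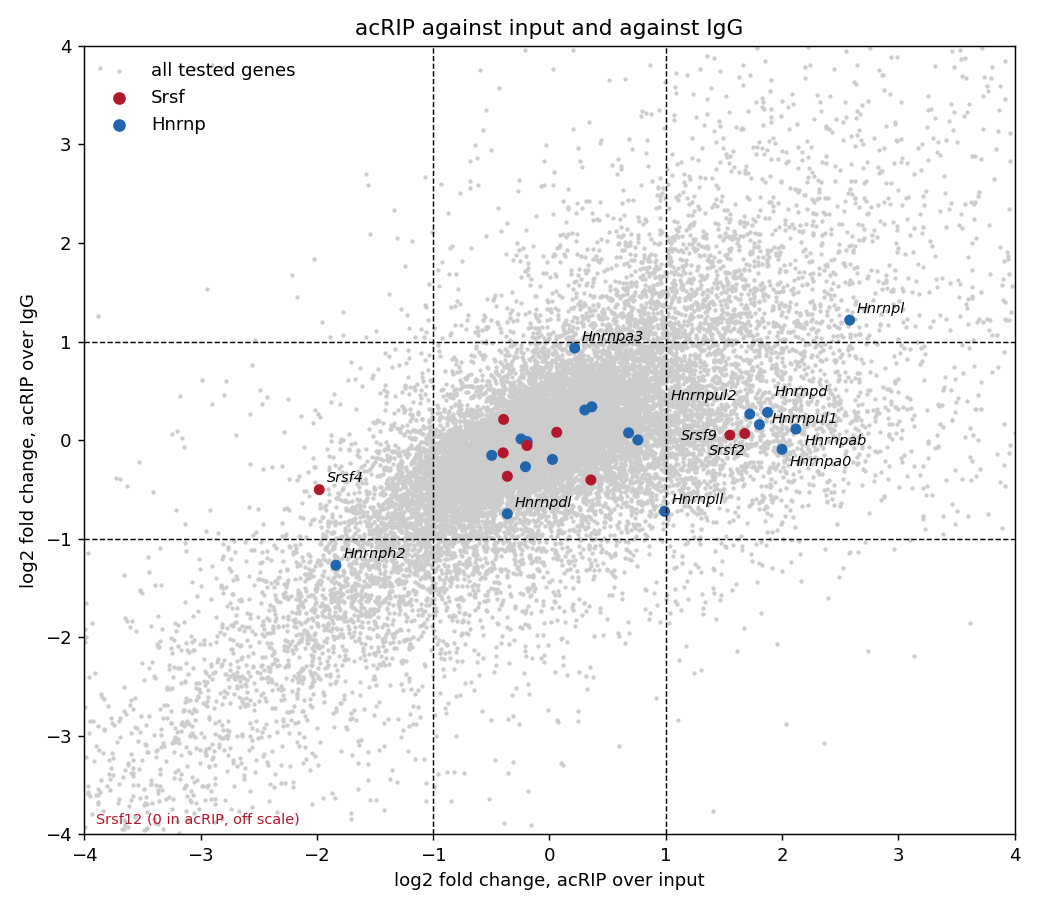
Each point is a gene, placed by its log2 fold change of acRIP over input (x) and of acRIP over IgG (y), with Srsf genes in red, Hnrnp genes in blue and all other tested genes in grey; dashed lines mark a 2-fold change and axes stop at 4, which leaves out Srsf12 and other extreme genes. Hnrnpl lies beyond both lines at 2.58 and 1.22, and 7 members lie to its left, beyond the line for input and between -0.09 and 0.28 against IgG.

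Hnrnpl encodes a protein that binds CA-rich RNA and represses or enhances exons, and its gene lies at chr7:28808541-28822266 on the plus strand of mm10. Its CPM (counts scaled to the size of the library with TMM factors) were 12.8, 11.95 and 11.5 in input, 33.5, 28.6 and 31.7 in IgG and 75.8, 69.5 and 72.7 in acRIP. The 3 groups did not overlap, and each step was larger than the spread within any group. acRIP exceeded IgG by 2.33-fold (log2 1.22 ± 0.085 SE, adjusted p = 3.0e-13) and input by 5.98-fold (log2 2.58 ± 0.090, adjusted p = 4.88e-22), while IgG itself exceeded input by 2.57-fold (log2 1.36 ± 0.092, adjusted p = 2.73e-14). Exon bases shared with another gene made up 0.538% of Hnrnpl and windows with an exact copy elsewhere 0.775%.

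Its closest paralog, Hnrnpll, which is known for lymphocyte-specific splicing, ran the other way against IgG. Hnrnpll had 36.8, 38.1 and 40.7 CPM in input, 132, 128 and 119 in IgG and 75.1, 69.9 and 84.3 in acRIP. IgG was the highest group and input the lowest, with no overlap. acRIP was below IgG by a log2 fold change of -0.72 ± 0.068 (adjusted p = 1.52e-10), short of the 2-fold limit, and IgG was 3.28-fold above input (adjusted p = 3.12e-20). Over input, acRIP stood at a log2 fold change of 0.99 ± 0.070 (adjusted p = 5.75e-14), at the edge of the limit. The ratio of Hnrnpl to Hnrnpll counts within a library was 0.348, 0.314 and 0.283 in input, 0.253, 0.224 and 0.268 in IgG, and 1.01, 0.994 and 0.862 in acRIP. By this ratio, which needs no scaling between libraries, acRIP stood apart from both other groups.

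Hnrnph2, an X-linked gene at chrX:134601179-134607060 whose protein binds guanosine runs like Hnrnph1, fell in acRIP. It had 14.3, 19.7 and 16.7 CPM in input, 13.9, 9.43 and 11.1 in IgG and 6.05, 3.57 and 4.63 in acRIP. All acRIP values were below all others, by 2.41-fold against IgG (log2 -1.27 ± 0.19, adjusted p = 1.34e-06) and by 3.57-fold against input (log2 -1.84 ± 0.19, adjusted p = 2.97e-10). In a test against a fold change of 2 itself, the difference from IgG no longer passed (adjusted p = 0.105). The autosomal paralog Hnrnph1 had 120, 121 and 121 CPM in acRIP against 119, 112 and 128 in IgG, which overlapped (log2 0.01 ± 0.058, adjusted p = 0.882). Within libraries Hnrnph1 counts were 6.83 to 9.70 times those of Hnrnph2 in input, 8.58 to 11.9 times in IgG and 19.9 to 33.9 times in acRIP. Their close sequence is a limit, since a read that matches both equally is not uniquely mapped.

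Srsf12 had 56, 52 and 62 counts in input, 14, 22 and 22 in IgG and none in the 3 acRIP libraries. Taking 3 counts per library as the floor, the level in acRIP was at least 13.2-fold lower than that in input and at least 6.28-fold lower than that in IgG (edgeR adjusted p = 8.3e-09 and 8.67e-07). Such zeros were found in other genes of its level. Of 408 coding genes whose mean input count lay between 52 and 62, as in Srsf12, 56 (13.7%) had no count in any acRIP library. Srsf10, the paralog that represses splicing when dephosphorylated, was counted well at 69.5, 70.5 and 72.2 CPM in acRIP and 66.6, 73.4 and 80.1 in IgG, which overlapped (adjusted p = 0.485).

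Srsf4, an SR protein with a long arginine-serine tail, was low in both precipitates. It had 7.6, 8.72 and 7.76 CPM in input, 2.58, 3.44 and 2.58 in IgG and 3.28, 1.23 and 1.64 in acRIP. The acRIP values straddled those of IgG and both groups lay under input. acRIP was 3.94-fold below input (log2 -1.98 ± 0.28, adjusted p = 1.67e-07) and IgG 2.78-fold below it (log2 -1.48 ± 0.26, adjusted p = 1.7e-05), while acRIP over IgG was -0.50 ± 0.30 (adjusted p = 0.14). Without acRIP replicate 1 this last difference reached -1.0 with an adjusted p of 0.00643. The exons shared with an antisense gene, given above, mean that some of these reads may belong to Gm12992.

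The other 7 members that were higher in acRIP than in input had IgG values close to those in acRIP. Hnrnpab, an A/B-type protein with roles in mRNA transport, went from 7.98, 5.98 and 6.09 CPM in input to 29.8, 26.6 and 25.2 in IgG and 29.2, 29.3 and 29.5 in acRIP. Hnrnpa0, a binder of AU-rich stress transcripts, went from 4.38, 2.92 and 3.51 to 17.3, 12.6 and 16.9 and then 15.2, 14.5 and 14.01. Hnrnpd, also known as AUF1, which regulates decay of AU-rich mRNA, had 9.29, 9.74 and 8.37 in input, 22.5, 28.03 and 32.0 in IgG and 32.7, 32.5 and 35.4 in acRIP. In Hnrnpab and Hnrnpa0 the precipitates overlapped fully, and in Hnrnpd acRIP lay just above IgG (log2 0.28 ± 0.11, adjusted p = 0.0315).
Hnrnpul1, a relative of Hnrnpu with roles in transcription and DNA repair, had 23.4, 24.4 and 19.8 CPM in input, 72.3, 75.4 and 64.6 in IgG and 83.0, 81.4 and 72.3 in acRIP. Hnrnpul2 had 4.57, 3.81 and 4.87, then 12.1, 9.75 and 14.6, then 13.8, 16.1 and 13.9. Srsf2, the speckle protein SC35, had 14.6, 14.1 and 12.4 in input, 41.6, 44.5 and 39.95 in IgG and 46.4, 45.8 and 39.8 in acRIP. Srsf9, the closest paralog of Srsf1, had 13.6, 10.9 and 12.1, then 35.4, 33.3 and 35.6, then 38.2, 37.8 and 32.0. In these 4 genes the IgG and acRIP ranges overlapped. Over the 7, acRIP exceeded input by 2.93-fold to 4.34-fold and IgG exceeded input by 2.75-fold to 4.27-fold, while acRIP over IgG ran from a log2 fold change of -0.09 in Hnrnpa0 to 0.28 in Hnrnpd.

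**Figure D4:**
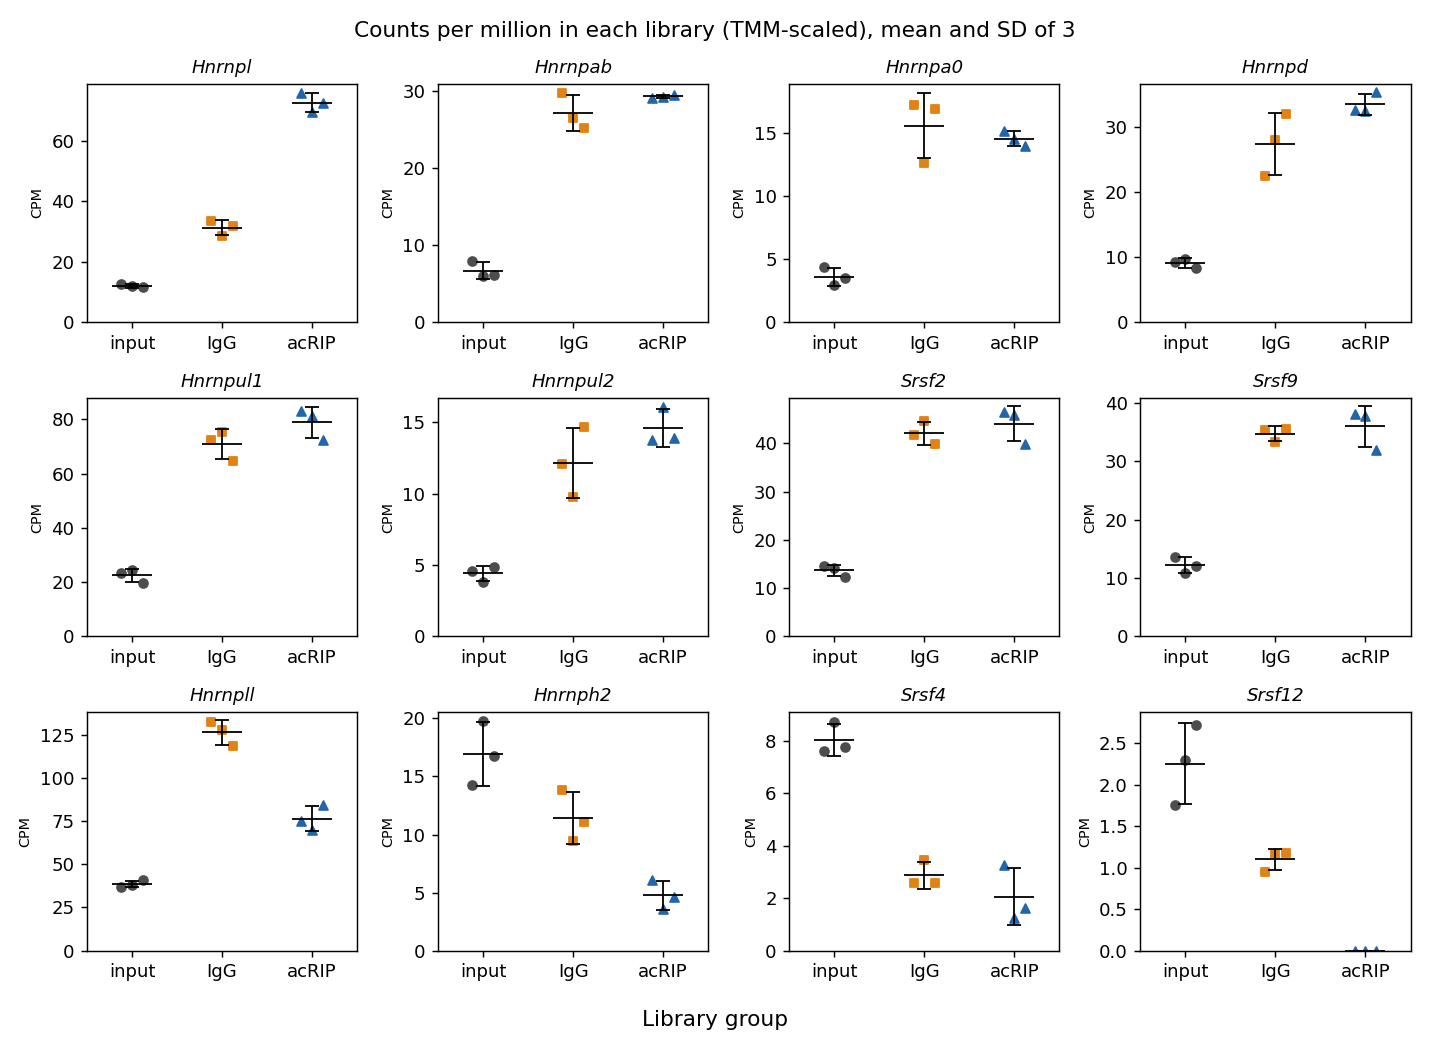
TMM-scaled CPM from 0 (y) in each of the 3 input, IgG and acRIP libraries (x) for the 11 members called in acRIP over IgG or over input and for Hnrnpll; the line and bars are the mean and SD of 3 libraries. All acRIP values lie above those of IgG in the panels of Hnrnpl and, narrowly, Hnrnpd, and below them in those of Hnrnph2, Hnrnpll and Srsf12.

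Srsf9 and its neighbours among the SR genes parted in the precipitates. The ratio of Srsf9 to Srsf6 counts within a library was 0.141 to 0.172 in input, 0.513 to 0.555 in IgG and 0.589 to 0.632 in acRIP. Srsf6, which supports exon inclusion in many tissues, had a log2 fold change of -0.40 ± 0.065 over input and -0.13 ± 0.067 over IgG (adjusted p = 2.69e-06 and 0.0904). Srsf5 gave -0.39 ± 0.066 over input and 0.21 ± 0.068 over IgG (adjusted p = 3.63e-06 and 0.00821). Srsf3, an export adaptor and regulator of its own mRNA, had overlapping groups in all 3 comparisons, at 0.08 ± 0.052 beside IgG and 0.06 ± 0.052 beside input (adjusted p = 0.192 and 0.282). Its paralog Srsf7 was at 121, 122.9 and 130.2 CPM in acRIP, below 165, 158 and 159 in IgG and 156, 164 and 161 in input, a log2 fold change of -0.37 ± 0.049 over IgG (adjusted p = 1.56e-07). Srsf11, which promotes the inclusion of microexons in neurons, was highest in IgG, at 142, 143 and 141 CPM, against 108, 103 and 110 in acRIP and 80.1, 83.6 and 87.1 in input.

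The abundant hnRNP transcripts differed by less than 2-fold in every comparison. Hnrnpa2b1 had 255, 260 and 258 CPM in input, 241, 267 and 264 in IgG and 306, 330 and 318 in acRIP, and all acRIP values lay above the rest (log2 0.31 ± 0.044 over IgG, adjusted p = 5.23e-07). Hnrnpk had 246, 264 and 255 in input, 193, 202 and 209 in IgG and 188, 173 and 181 in acRIP, and all acRIP values lay below the rest (log2 -0.16 ± 0.047 over IgG, adjusted p = 0.00466). Hnrnpf stood at 153, 154 and 159 CPM, then 160, 171 and 156, then 133, 127 and 144, again with acRIP lowest (log2 -0.27 ± 0.053, adjusted p = 4.79e-05). Hnrnpc, whose tetramer binds uridine tracts and measures transcript length, stood at -0.20 ± 0.052 (log2) over IgG (adjusted p = 0.00161), and Hnrnph3 at -0.02 ± 0.078 (adjusted p = 0.877). Hnrnpdl, a paralog of Hnrnpd, was at 58.6, 52.6 and 58.8 CPM in acRIP against 95.3, 96.3 and 93.7 in IgG and 72.4, 73.5 and 72.5 in input. It was thus lower in acRIP than in either group, by less than 2-fold (log2 -0.75 ± 0.063 over IgG, adjusted p = 1.94e-11), while Hnrnpd, which lies near it on chromosome 5, was not. The ratio of Hnrnpd to Hnrnpdl counts was 0.115 to 0.133 in input, 0.236 to 0.341 in IgG and 0.558 to 0.618 in acRIP, with no overlap between the groups.

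Hnrnpm, whose protein binds GU-rich RNA and which the study names among proteins recovered with NAT10, had 77.4, 76.8 and 83.5 CPM in input, 80.5, 82.8 and 78.6 in IgG and 107, 104 and 94.6 in acRIP. The acRIP libraries lay above both other groups, which overlapped. The excess was 1.26-fold over IgG and 1.29-fold over input (log2 0.34 ± 0.062 and 0.36 ± 0.061, adjusted p = 1.97e-05 and 3.49e-06), under the 2-fold limit. Hnrnpr, which holds the 2 matches of TCCCAGCT shown above, had 50.5, 52.9 and 53.8 CPM in acRIP and 53.1, 52.6 and 51.4 in IgG, a log2 fold change of 0.001 ± 0.080 (adjusted p = 0.992). Both precipitates lay above its input values of 28.9, 34.7 and 29.3 CPM. The remaining A/B members with many copied windows were Hnrnpa1, at 0.07 ± 0.15 over IgG (adjusted p = 0.683), and Hnrnpa3, with 24, 33 and 23 counts in acRIP against 9, 20 and 15 in IgG (adjusted p = 0.082).

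The study set its ac4C(+) genes by a fold limit together with a test of significance. That test was not joined to the FPKM ratio here. DESeq2, which the methods of the study name, called 1 member, Hnrnpl, higher in acRIP than in both groups at the limits used above. By the fold limit alone, a ratio of mean FPKM + 1 above 2 against both IgG and input, 1 of the 31 members passed, Hnrnpl, with ratios of 2.05 and 4.16. Of the 35699 genes with a count, 2.02% passed. The ratio of Hnrnpl against IgG was 1.98 without IgG replicate 2, so its place under this limit rests on that library. All other tested members had a ratio over IgG between 0.566 in Hnrnph2 and 1.20 in Hnrnpm. No member reached the limit of 5 against IgG that the study set for highly acetylated genes.

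The size of the differences went with the level in input. None of the 14 members with at least 10 FPKM in input was called in any of the 3 comparisons by edgeR or by DESeq2 (at an unadjusted p under 0.05, 3 exceeded IgG in acRIP and 6 lay below it, beside 27.9% and 39.0% of all tested genes), and their largest log2 fold change in either direction was 0.76, in Srsf11 for IgG over input. Among the 15 members below 10 FPKM, 12 were called in at least 1 comparison, the exceptions being Hnrnpa1, Hnrnpa3 and Hnrnpr. Over the tested protein-coding genes, 603 of 4145 at or above 10 FPKM (14.5%) and 6399 of 10851 below it (59.0%) were called in at least 1 comparison. The limit of 10 FPKM was set after the values were seen, and the input libraries enter both the level and 2 of the comparisons, so no test was made.

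GC content of the longest coding transcript was a feature of the members that the rule did not use. Across the 29 members it varied with the IgG over input difference at Pearson's r = 0.409 and Spearman's rho = 0.464, against r = 0.121 and rho = 0.127 over 14988 tested coding genes. For acRIP over IgG the values were r = 0.0971 and rho = 0.0778 in the members and r = 0.0118 and rho = 0.0451 over the coding genes. For acRIP over input they were 0.27 and 0.388 in the members and 0.0697 and 0.117 over the coding genes. The share of C alone gave r = 0.367 and rho = 0.417 in the members for IgG over input. For acRIP over IgG it gave -0.139 and -0.239 in the members, against 0.00169 and 0.0507 over the coding genes. Genes are not independent replicates, the points share libraries and depth, and the members include paralogs, so these are descriptions. The 7 members at or above the median GC content of tested coding genes, 49.8%, had a median log2 fold change of 1.61 in IgG over input, where coding genes on the same side had 0.06, and the 22 below it had 0.002, beside -0.08. Srsf4, with 56.8% GC, was the exception among the 7, at -1.48. In the 22 below the limit, 11 values were above 0. Among these were Hnrnpd (41.7% GC), Hnrnpll (45.2%) and Hnrnpul2 (49.5%), called higher at 1.59, 1.71 and 1.46. Hnrnpab (49.92%) and Srsf2 (49.97%) lay just above the limit of 49.84%.

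**Figure D5:**
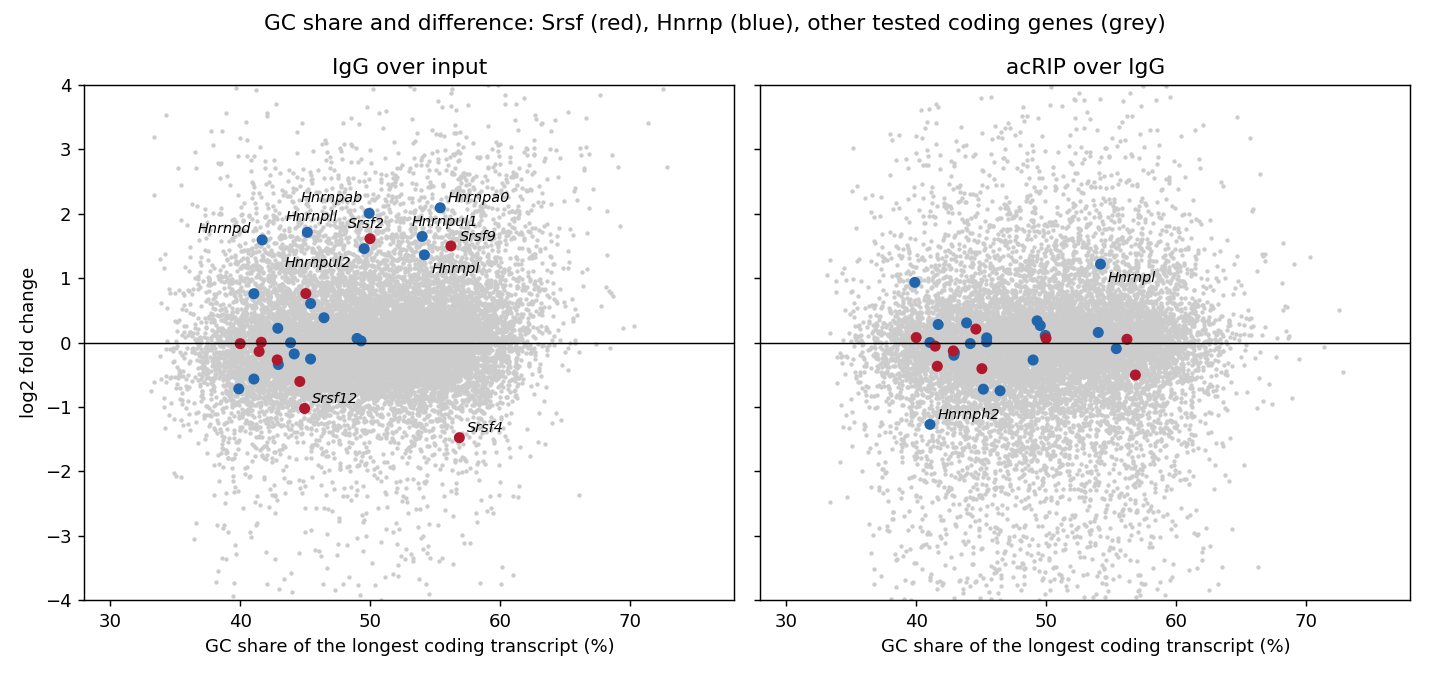
GC content of the longest coding transcript in percent (x) against the log2 fold change (y) of IgG over input, left, and of acRIP over IgG, right, for Srsf genes in red, Hnrnp genes in blue and other tested coding genes in grey; the y axis stops at 4 in either direction, which leaves out Srsf12 on the right. On the left the members above 49.8% GC sit between 1.36 and 2.09, apart from Srsf4, and on the right the members spread around 0 with Hnrnpl at 1.22 and Hnrnph2 at -1.27 named.

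Other genes of splicing were described by lists. Of 26 SR-related and SR-like genes, 0 were called higher and 4 lower against IgG (median log2 fold change -0.10; 5 higher and 11 lower at an unadjusted p under 0.05), and 7 higher and 2 lower than in input. The lower ones included Srrm3 and Srrm4, activators of neuronal microexons, with 0 counts in all acRIP libraries and at most 12 and 14 in an IgG library. Of 13 tested kinases, phosphatases and importers of SR proteins, 0 were higher and 1 was lower against IgG (median -0.29; 2 higher and 9 lower at an unadjusted p under 0.05); it was Clk2, a kinase that phosphorylates SR proteins, at -1.02 ± 0.20 (adjusted p = 4.23e-05). Among 26 hnRNP genes with other symbols 1 was higher and 0 were lower than in IgG (median 0.16; 11 higher and 8 lower at an unadjusted p under 0.05), and 8 were higher and 1 lower than in input. The one higher than in IgG was Fubp3, a single-strand binding protein, at 1.12 ± 0.18 (adjusted p = 3.93e-06).

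Core spliceosome genes were called seldom, but many of them stood above 10 FPKM in input, and the backgrounds below are not matched for level. Among 4145 tested coding genes at or above 10 FPKM, 13 were called higher and 97 lower than in IgG. Below that level the numbers were 1343 and 2838 of 10851. Against IgG, 0 of 17 genes of the U2 particle and 3′ splice site recognition (median -0.15), 0 of 7 of the U1 particle (median -0.01) and 0 of 8 Sm genes (median -0.02) were called; at an unadjusted p under 0.05, 1, 2 and 3 of them were higher and 9, 2 and 4 lower. Of 26 genes of the tri-snRNP and catalytic core 2 were higher and 0 lower (median -0.18; 4 higher and 13 lower at an unadjusted p under 0.05), namely Ppih, a cyclophilin of the tri-snRNP, at 1.14 ± 0.18 (adjusted p = 1.86e-06) and Cdc40, a second-step factor, at 1.12 ± 0.14 (adjusted p = 5.03e-08). Tissue-restricted regulators held 3 higher and 2 lower of 24 tested (median -0.10). Among those called were Rbfox3, a neuronal regulator, with 48, 52 and 66 counts in acRIP against 10, 4 and 9 in IgG, Esrp1, an epithelial regulator, at 1.31 ± 0.27, and Mbnl3 and Elavl2 at -1.59 ± 0.33 and -1.32 ± 0.24. None of Nat10, Pcbp1, Pcbp2 and Tardbp, the writer complex of the study, nor Thumpd1, a partner of NAT10 on tRNA, was called against IgG. At an unadjusted or an adjusted p under 0.05, 4 of these 5 were higher, Tardbp being the exception, and 0 lower. The 4 had log2 fold changes of 0.24 in Thumpd1, 0.43 in Nat10, 0.65 in Pcbp1 and 0.71 in Pcbp2, under the 2-fold limit. By the adjusted p alone, 26.4% of all tested genes were higher. DESeq2 called as many genes in each direction against IgG in every list. The backgrounds of calls over all tested genes were 11.5% higher and 20.9% lower against IgG, and 17.7% and 22.9% against input. At an unadjusted p under 0.05, 27.9% of all tested genes were higher and 39.0% lower against IgG, the background for the unadjusted counts of these lists.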

How the data were processed

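Poly(A) RNA of mouse testis was sequenced as input, IgG and acRIP libraries (3 each) by Smart-seq2. Per the labels and methods, the authors trimmed reads with Trim Galore 0.6.7, aligned them to mm10 with STAR 2.7.10a and counted uniquely mapped reads with featureCounts 2.0.2. The deposited counts are raw, one value per gene and library, beside a gene length. Which annotation and strand option were used, and whether pairs or single reads were counted, is not given in the sources used here. Gene coordinates matched GENCODE vM21 for all 31 members, and their deposited lengths equalled the merged length of the deposited exons. Of the 55401 genes, 54349 were found in that annotation. Among values from 1 to 20, 83.2% were even, as arises when both reads of a pair are counted. Columns of per-sample values not used: 0.

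Genes kept by filterByExpr (22510) were fitted with edgeR 4.0.16 (R 4.3.3) by glmQLFit and glmQLFTest with TMM scaling and one mean per group. Calls required p under 0.05 after Benjamini-Hochberg adjustment together with over 2-fold change. Standard errors are the unshrunk log2 fold change over the square root of F. FPKM was computed from the deposited counts, lengths and library totals. DESeq2 1.42.0 and other settings were alternatives. The scripts were tested on simulated data. The members, gene lists and limits were chosen with earlier results of these data known. Members called against IgG or input, the 3 highest and 3 lowest in input, Hnrnpm and paralogs are described by library; listed genes have values only where called, up to 2 per direction. The level and GC limits were chosen after the values were seen. Protein sequences were not used here.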

Additional observations from a re-analysis of the deposited data

How the results depend on the processing

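Direction and calls were recomputed under 21 settings. For members higher in acRIP than IgG (1), in acRIP than input (8) and in IgG than input (9), counts stayed within 1.5 times except without the fold limit, which gave 5, 14 and 14; the lower members then numbered 9, 12 and 6, and those beyond both groups 4 higher and 6 lower. Lower members of IgG over input numbered 2 under upper quartile scaling, total counts or a fit of only the 6 libraries compared, as Srsf12 joined Srsf4, and 0 when tested against a fold of 2. The latter also left 1 lower member (Srsf12) in acRIP over IgG and 1 beyond both. No called value changed its sign. Leaving out 1 library in turn gave 1 higher and 2 to 3 lower against IgG, 8 to 9 higher and 3 lower against input, 9 higher and 1 to 2 lower for IgG over input, 1 higher and 2 to 3 lower beyond both, and 0 to 1 under the FPKM ratio; Srsf4 joined the lower members against IgG without acRIP replicate 1, Hnrnpll the higher members against input without input replicate 3 or acRIP replicate 1 or 2, and Srsf12 the lower members of IgG over input without any 1 acRIP library. Hnrnpl over IgG lay between 1.16 and 1.27 on the log2 scale in all settings. A pseudocount of 0.1 or TMM library sizes left the FPKM ratio count at 1. The replicate block was run because the groups share replicate numbers. It gave 1 higher and 2 lower against IgG, 8 and 3 against input and 9 and 1 for IgG over input. Deviations of libraries with the same number correlated between -0.00659 and 0.0351, and those with different numbers between -0.0295 and 0.0271. No pairing by number was seen, but values this close to each other cannot exclude it. With a floor of 6 counts per library, added after the data were seen and fitting a count of both reads of a pair, Srsf12 was at least 6.59-fold below input and 3.14-fold below IgG. The other causes were not tested.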
